A study of Drosophila melanogaster x Drosophila simulans and Drosophila melanogaster and Drosophila simulans with 186 samples.

Results

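The head region of hybrid blastoderm embryos was compared with the rest of the same embryos. The slices of the head were chosen by position alone. Each slice was placed at its midpoint along the anterior-posterior axis, counted in slices from the anterior end, and the slices above 12.5% and up to 25.0% of the number of slices made up the head. This rule took 19 of the 132 hybrid slices, out of 186 slices in the series, and left 113 hybrid slices as the rest. There were 4 head slices in each embryo but 1, the D. simulans mother replicate 1, which was cut into 25 slices and had 3.

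Embryos from crosses of D. melanogaster strain DGRP-340 and D. simulans strain w501 were fixed in methanol at mid-stage 5 (blastoderm cycle 14C), cryosliced at 14 μm, and profiled slice by slice with SMART-seq2 RNA-seq. The 3 melXsim embryos had a D. melanogaster mother and a D. simulans father, and the 2 simXmel embryos came from the reverse cross. All 5 carry 1 set of autosomes of each species in every nucleus, and their maternal RNA comes from 1 species only. A male hybrid has only the mother's X chromosome, and the paper reports embryos of both sexes from each direction of the cross. A single embryo of each parental strain (melXmel and simXsim) was sliced as well and is given here only as a description. Labels do not give the sex of the embryos. The study's library list gives batches under other names than the sample labels, so that no value within a batch was computed. RNA samples were put in random order before library preparation and sequenced in separate lanes, so slices of 1 embryo may differ in batch. Head and other regions were compared within an embryo, and the directions of the cross between embryos. Values below are listed in the order melXsim replicates 1, 2 and 3, then simXmel replicates 1 and 2.

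At this stage the embryo is a sheet of nuclei that are being enclosed in membranes, and its body plan exists only as bands of gene expression. The head is laid out by bicoid, a maternal protein gradient, and by the torso system at the ends, which switch on the head gap genes orthodenticle (oc), empty spiracles (ems) and buttonhead (btd) in overlapping bands. The trunk behind it is divided by the gap and pair-rule genes, which are used differently in the head.

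Expression was given as FPKM, a fragment count scaled by transcript length and by the number of mapped fragments, and 17 of the 19 head slices and 101 of the 113 other slices had values in the joint table. The 2 head slices without FPKM were slices 4 and 5 of melXsim replicate 1, so that the head of this embryo is represented by its 2 posterior head slices. All 19 head slices and 107 other slices had allele-specific expression (ASE). Summed over the 3005 genes whose counts could be placed, the allele counts of a head slice were 757438 to 2578102. Between 6378 and 6775 genes reached 1 FPKM in a head slice.

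The slices carried the markers of the head in every embryo. Head FPKM of oc (FBgn0004102, chromosome X, 8524192 to 8544714 in release 5 coordinates of the D. melanogaster genome), which encodes a homeodomain protein needed for the antennal and ocular head, was 50.7, 30.2, 32.6, 53.7 and 46.2. Its FPKM in the rest was 1.48, 1.73, 5.32, 3.8 and 2.76. The groups did not overlap, and the lowest head value was several times the highest value of the rest. With each embryo's slices averaged within a region, the difference of log2(FPKM + 1) was 3.49 ± 0.24 (SE, n = 5 embryos; limma, adjusted p = 0.00030).

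Head FPKM of ems (FBgn0000576, chromosome 3R, 9727575 to 9730342), a homeodomain gene of the intercalary and antennal segments, was 83.9, 116, 126, 98 and 63.5, against 7.82, 4.72, 17.8, 15.3 and 9.36 in the rest. Head FPKM of btd (FBgn0000233, chromosome X, 9588219 to 9591591), a zinc finger gene of the same system, was 38, 16.6, 8.32, 62.8 and 25.5, against 3.75, 1.37, 3.04, 6.82 and 6.02. For ems the regions were far apart in all embryos, while for btd the head of melXsim replicate 3 was only slightly above the highest rest value. The log2 differences were 3.12 ± 0.25 for ems (adjusted p = 0.00053) and 2.42 ± 0.28 for btd (adjusted p = 0.0026). For all 3 markers every embryo had the higher value in its head, which gives the smallest two-sided p that an exact sign-flip test can reach with 5 embryos, 0.0625. In the single embryos of the parental strains oc had 74.4 FPKM in the head slices against 2.78 in the rest for D. melanogaster, and 23.2 against 2.22 for D. simulans. In slices of mixed cells, more cells of a type and more RNA per cell cannot be told apart.

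**Figure D1:**
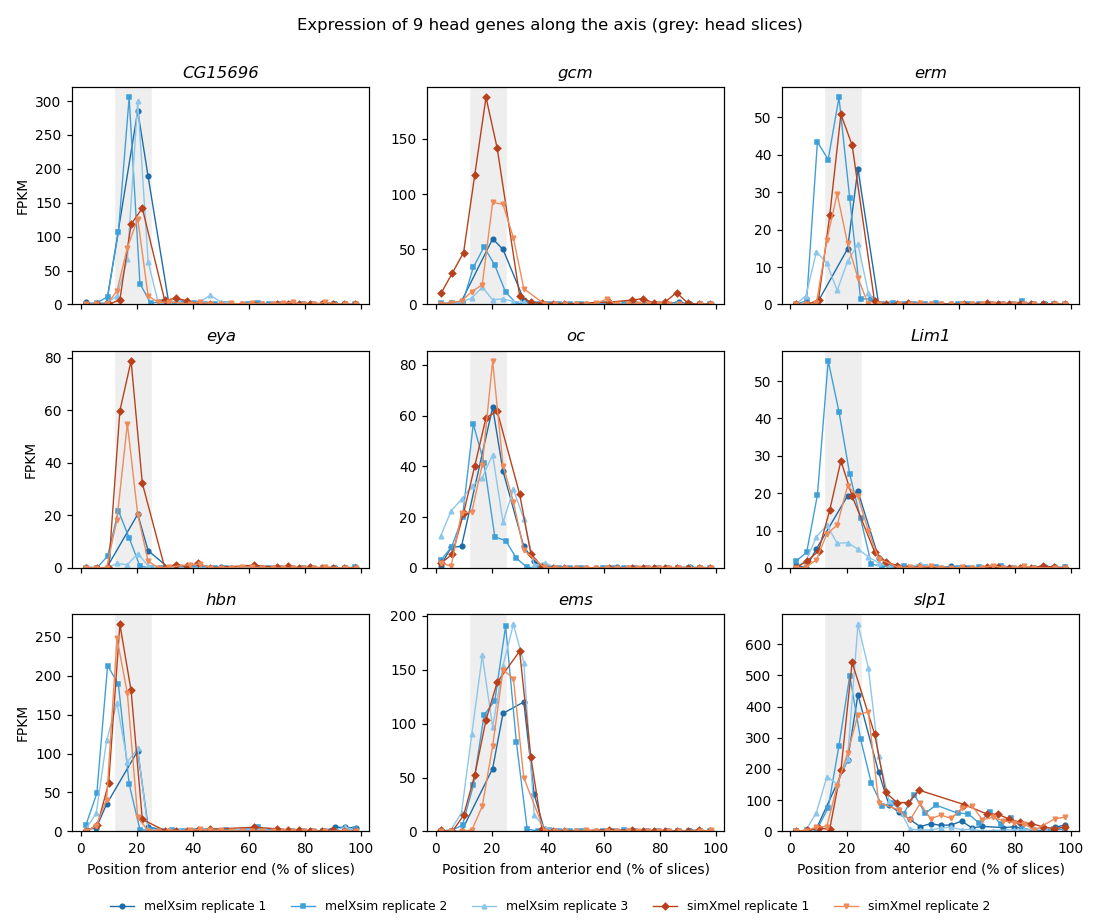
FPKM (vertical axis) of 9 head genes against slice position as percent of embryo length from the anterior end (horizontal axis), with 1 line per hybrid embryo and the head slices shaded in grey. CG15696 and gcm rise in or beside the shaded band and reach a mean of 122 and 59.5 FPKM there, against 1.33 and 2.59 in the rest.

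Across the 6737 genes with an average of at least 1 FPKM, 193 were higher in the head than in the rest of the embryo (2.86% of the genes tested) and 184 were lower (2.73%), at an adjusted p below 0.05 (limma on the 5 within-embryo differences, Benjamini-Hochberg). Of these, 68 were higher and 82 lower by at least 1 on the log2 scale, which is 1.01% and 1.22% of the genes tested. The median difference over all genes was near 0, at -0.0044. Of the 377 genes called, 375 differed in 1 direction in each embryo, and CG15646 and mid were the exceptions. At an unadjusted p below 0.05 there were 1157 genes. When log2 values were averaged over slices instead of FPKM, 395 genes were called and 68.6% of them were higher, against 51.2% here, so the balance of higher and lower genes depends on how slices are averaged. Since 1 FPKM is added before the logarithm, the changes of genes with low values are understated.

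The largest positive differences were found in CG15696, gcm, erm, hbn and eya, which are described first. CG15696 (FBgn0038833, chromosome 3R, 16672790 to 16673470), a predicted homeobox gene, had head FPKM of 237, 111, 111, 89.2 and 60.6 and was at 0.762, 1.21, 1.9, 1.46 and 1.32 in the rest. It was the gene with the largest positive difference, 5.59 ± 0.30 (adjusted p = 0.00018). All embryos were at 60.6 FPKM or more in the head and at 1.90 FPKM or less in the rest. Head FPKM of gcm, the transcription factor that directs glial and blood cell fates, was 54.7, 33.1, 7.73, 149 and 53.2 against 0.674, 0.332, 0.396, 7.4 and 4.14. The head of melXsim replicate 3 had only about as much gcm as the rest of simXmel replicate 1, but each embryo was higher in its own head (log2 difference 3.99 ± 0.33, adjusted p = 0.00058).

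Head FPKM of erm (earmuff), a zinc finger gene of the developing brain, was 25.6, 31, 10.6, 39.1 and 17.5 and its FPKM in the rest was 0.013, 2.3, 0.936, 0.22 and 0.0362. Head values of hbn (homeobrain), a homeodomain gene named for its expression in the brain, were 54.6, 63.4, 90.7, 154 and 111 against 3.15, 13.8, 7.62, 5.42 and 2.88. For eya (eyes absent), a transcription cofactor of eye and head development, they were 13.5, 8.48, 2.3, 57 and 24.1 against 0.029, 0.246, 0.075, 0.376 and 0.214. Every one of these 3 genes was separated between the regions in all embryos, although eya was at only 2.3 FPKM in the head of melXsim replicate 3. Their log2 differences were 3.95, 3.75 and 3.63 (adjusted p = 0.00071, 0.0012 and 0.0049). The call for eya was lost when no filter on low values was applied (adjusted p = 0.054).

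The other genes of the 12 with the largest positive differences were Gsc (3.40), Lim1 (3.32), slp2 (3.0) and PGRP-SC2 (2.63), besides oc, ems, the genes just described and slp1, whose values follow with the head gap genes. Gsc and Lim1 encode homeodomain proteins, slp2 encodes a forkhead protein, and PGRP-SC2 encodes a secreted peptidoglycan recognition protein. Head FPKM averaged 15.3 ± 6.38 for Gsc, 19.5 ± 9.63 for Lim1, 25.9 ± 8.75 for slp2 and 10.6 ± 2.8 for PGRP-SC2 (SD, n = 5 embryos). In the rest the averages were 0.461 ± 0.327, 0.885 ± 0.314, 2.35 ± 1.06 and 0.862 ± 0.382. The genes erm, eya, Gsc, Lim1 and PGRP-SC2 averaged under 1 FPKM in the rest and passed the filter only through the head.

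**Figure D2:**
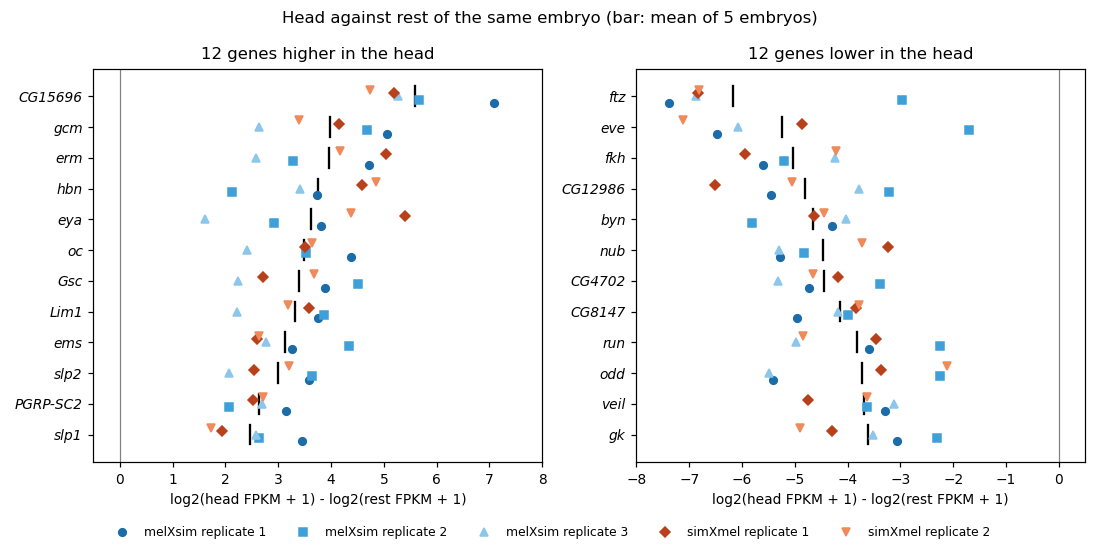
Difference of log2(FPKM + 1) between head and rest (horizontal axis) for the 12 genes with the largest positive and the 12 with the largest negative called differences, with 1 point per embryo and a bar at the mean of 5. The means run from 5.59 for CG15696 down to -6.17 for ftz, and melXsim replicate 2 stands apart from the other embryos for ftz.

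Of 14 head gap and head patterning genes listed, all were tested, and 7 were higher in the head (btd, ems, gt, knrl, oc, slp1 and slp2) and none lower. This is to be read against the 2.86% of all genes that were higher. Since this list and those below were chosen with earlier results of these data known, their counts are a description. The median difference of the list was 0.73, against -0.0044 over all genes. Among the 7 higher genes slp1, a forkhead gene that acts as a head gap gene before its pair-rule stripes, had the highest level. Head FPKM of slp1 was 333, 287, 306, 248 and 197 against 29.6, 45.4, 50.4, 64.5 and 58.9 in the rest (log2 difference 2.46, adjusted p = 0.0010). The gap gene gt differed by 1.02 (adjusted p = 0.012) and knrl, a nuclear receptor gene next to kni, by 0.69 (adjusted p = 0.0058). Against the anterior pole alone, however, knrl and kni were lower in the head, with differences of -1.71 and -1.69 (adjusted p = 0.00073 and 0.00094).

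The remaining 7 genes of that list did not pass the test, and their values show different arrangements. The head gap gene tll, which encodes a nuclear receptor, averaged 193 ± 69.4 FPKM in the head and 110.1 ± 32.5 in the rest, with a difference of 0.77 (adjusted p = 0.087). Its rest includes the posterior pole, where tll peaked in each of the 5 embryos. The gap gene hb averaged 73.3 ± 26.3 in the head against 57.3 ± 20.8 (difference 0.35, adjusted p = 0.12). For cnc and croc, genes of the anterior tip, and for bcd, whose maternal RNA sits at the anterior pole, the differences were -0.45, -1.25 and -0.22 (adjusted p = 0.56, 0.41 and 0.70). The Sox gene D differed by 0.44 and kni by 0.24, with adjusted p of 0.51 and 0.48.

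Of 14 genes of the brain and eye primordia, 9 were expressed highly enough to be tested, and 5 were higher (SoxN, eya, hbn, so and toy) and none lower, with a median of 1.08. Of all genes tested, 2.86% were higher and 2.73% lower, and the counts of the lists that follow are to be read against these shares. SoxN, a neural Sox gene, averaged 76.9 ± 5.02 FPKM in the head and 20.4 ± 5.99 in the rest. The eye genes so, a Six-type homeodomain gene, and toy, a Pax6 gene, differed by 1.53 and 1.08 (adjusted p = 0.0028 and 0.0033). Optix, another Six-type gene, averaged 10.3 ± 10.3 FPKM in the head against 3.96 ± 2.36 and did not pass (adjusted p = 0.16). The other genes tested that did not pass were tll, Dr and fd102C. The genes ey, Rx, dac, lz and fd59A were below the filter.

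The head was then compared with its neighbours, the anterior pole (15 slices in front of it) and the cephalic furrow region (15 slices behind it, up to 37.5% of the length). FPKM were given for all 15 slices of the first and 12 of the second. Those without FPKM were slice 8 of melXsim replicate 1 and slice 7 of simXmel replicate 1, both directly behind the head, and slice 10 of simXmel replicate 2. In melXsim replicate 1 the head slices next to the anterior pole had no FPKM either. The comparisons of these 2 embryos with a missing slice beside the boundary therefore skip that boundary. Against the anterior pole, 144 of 6794 genes were higher in the head (2.12%) and 188 lower (2.77%). Against the cephalic furrow region, 95 of 6677 were higher (1.42%) and 73 lower (1.09%). Of the 193 genes higher than the rest, 14 were also higher than both neighbours: CG15696, gcm, erm, eya, oc, Lim1, nullo, grn, Hmx, CG5346, Hsp22, Tre1, CG34371 and pros. The genes bun and shn were the only 2 lower than the rest and both neighbours.

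CG15696 was the gene of this group with the largest difference on either side, 5.68 against the anterior pole and 4.79 against the cephalic furrow region (adjusted p = 0.00036 and 0.0015). FPKM of CG15696 averaged 1.67 ± 1.87 in the anterior pole, 122 ± 67.7 in the head and 3.42 ± 2.43 in the cephalic furrow region (SD, n = 5 embryos). Its slice of highest FPKM lay between 17.3 and 22% of the length in every embryo. For gcm the differences from the neighbours were 3.50 and 3.10, and for eya 3.52 and 3.63. FPKM of eya averaged under 1 in both neighbours, and so did that of erm in the cephalic furrow region. In those comparisons these genes passed the filter only through the head, so that a higher head mean was fixed by the filter. The marker oc was higher than the anterior pole by 1.95 and higher than the cephalic furrow region by 2.12 (adjusted p = 0.015 and 0.038).

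Several of these calls against the neighbours were lost when 1 embryo was left out. Without melXsim replicate 1, the adjusted p against the anterior pole was 0.171 for erm, 0.0957 for eya and 0.0556 for oc. Leaving out simXmel replicate 1 gave 0.163, 0.059 and 0.0743 for these genes, and leaving out simXmel replicate 2 gave 0.134 for erm and 0.0664 for eya. Against the cephalic furrow region, leaving out an embryo took the adjusted p of gcm to between 0.0631 and 0.17 for 4 of the 5 embryos, the exception being simXmel replicate 2. The adjusted p of oc became 0.136, 0.0623, 0.106 and 0.0718 without melXsim replicates 1 and 2 and simXmel replicates 1 and 2. For Lim1 it became 0.0964 without melXsim replicate 1 and 0.0944 without simXmel replicate 1.

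Other head genes passed the test against only 1 of the neighbours. The marker ems was at 97.4 ± 25 FPKM in the head and 88.2 ± 37.9 in the cephalic furrow region, a difference of 0.26 (adjusted p = 0.83), but at 2.85 ± 2.96 in the anterior pole. The marker btd had 28.2 ± 17 FPKM behind the head and 4.69 ± 3.53 in front of it, where its difference was 2.48 (adjusted p = 0.0040). On the other side, hbn was at 38.2 ± 32 FPKM in the anterior pole (difference 1.54, adjusted p = 0.14) and at 0.737 ± 0.431 in the cephalic furrow region (difference 5.72, adjusted p = 2.8e-05). Against the cephalic furrow region hbn passed the filter of 1 FPKM only through the head, so that its higher head mean was fixed there. By contrast, tll passed against both, where the difference from the region behind was 6.15 and that from the region in front 5.10 (adjusted p = 0.00015 and 0.0051). The genes of the tip bcd, cnc and croc were lower in the head than in the anterior pole, with log2 differences of -1.20, -2.92 and -3.91 (adjusted p = 0.023, 0.0041 and 0.018).

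**Figure D3:**
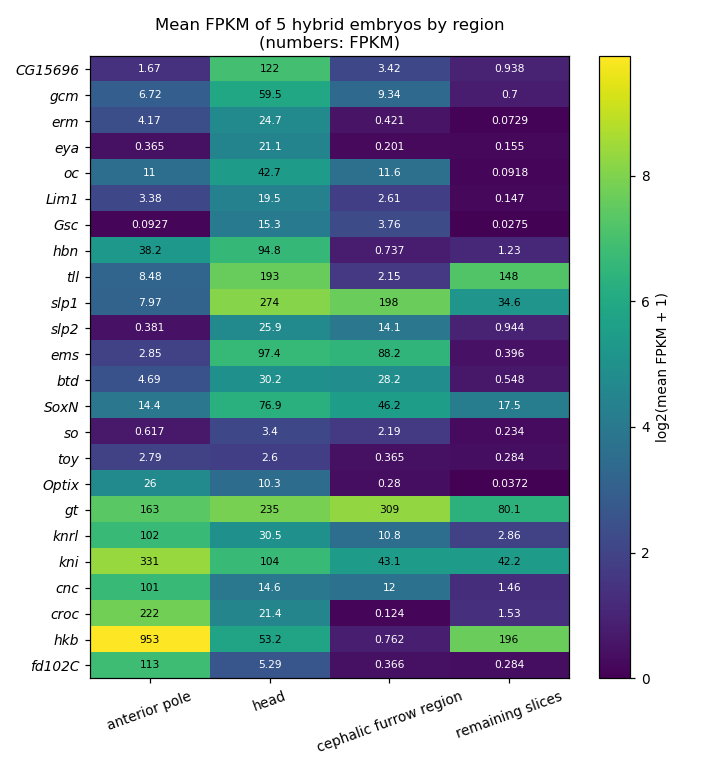
Mean FPKM of 24 genes in the anterior pole, the head, the cephalic furrow region and the remainder of 5 hybrid embryos, printed in each cell over a color scale of log2(mean FPKM + 1). CG15696 and oc are highest in the head column, and ems is about as high in the cephalic furrow region as in the head.

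Of 9 pair-rule genes, all tested, eve, ftz, odd, opa and run were lower and slp1 and slp2 higher, against 2.73% and 2.86% of all genes, with a median of -2.57 over the list. Head FPKM of ftz was 0.145, 36.9, 0.517, 0.907 and 0.268 against 189.6, 296, 176, 216 and 142 in the rest, and head FPKM of eve was 0.855, 59.4, 2.1, 6.61 and 0.0275 against 164, 196, 207, 220.4 and 142. The head of melXsim replicate 2 held far more of both than the other heads, though less than its own rest. Its 4 head slices from front to back had 1.16, 1.88, 3.81 and 141 FPKM of ftz and 0.97, 3.28, 56 and 177 FPKM of eve, so that most of this signal lay in its most posterior head slice. The log2 differences were -6.17 ± 0.60 for ftz (adjusted p = 0.0012) and -5.25 ± 0.71 for eve (adjusted p = 0.0055). Without melXsim replicate 2 they were -6.97 and -6.13. The calls for eve and odd were lost without a filter on low values (adjusted p = 0.057 and 0.071).

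The same embryo had its peak further forward than the other 4 embryos for 8 of 13 head genes compared (the 3 markers and the 12 genes of largest positive difference). The peaks of ems, gcm, erm, Lim1 and PGRP-SC2 were not the most anterior in it. Of the 8, the slice with the highest oc in melXsim replicate 2 lay at 13.5% of the length, against 20.4 to 22% in the other 4 embryos. Its peak of CG15696 was at 17.3%, against 20.4 to 22%, and its peak of slp2 at 17.3%, against 22 to 27.8%. Positions are in steps of 1 slice, and the part of this shift in the values above was not tested. The front head slices of melXsim replicate 1 had no FPKM, so that a peak there could not be seen.

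Among the other trunk genes, the POU genes nub and pdm2 were lower in the head, with log2 differences of -4.47 and -2.97 (adjusted p = 0.00032 and 0.020). The trunk gap gene Kr differed by -1.77 (adjusted p = 0.0036). In the list of 7 trunk gap genes these 3 were lower, gt and knrl were higher, and hb and kni did not pass, with a median of 0.24. Of the trunk Hox genes, Antp and Ubx passed the filter on low values, which they could do only through the rest, so that a lower value in the head was fixed by the filter. Their differences were -2.41 and -1.66. Their FPKM summed with abd-A and Abd-B was at most 0.117 in the head of any embryo and 5.51 to 11 in the rest. Of the head Hox genes only Dfd passed the filter, with a difference of -0.29 that did not pass the test (adjusted p = 0.85). Against the cephalic furrow region alone, Dfd differed by -2.52 (adjusted p = 0.066).

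The forkhead gene fkh, which specifies the fore- and hindgut, averaged 0.634 ± 0.702 FPKM in the head and 53.1 ± 22.9 in the rest (difference -5.04, adjusted p = 0.00018). For byn, the T-box gene of the hindgut, the averages were 0.004 ± 0.00894 and 26.9 ± 16.2 (difference -4.65, adjusted p = 0.00018). Of 6 posterior terminal genes tested, byn, cad, fkh and hkb were lower and bowl was higher (of all genes, 2.73% and 2.86%), with a median of -2.70. Such genes with almost no FPKM in the head, byn and fkh among them, could be tested only through the rest. Of 7 anterior terminal genes, fkh and hkb, which also belong to the posterior list, were lower, bowl was higher, and bcd, cnc, croc and tll did not pass, with a median of -0.45. Against the anterior pole alone, bcd, cnc, croc, fkh and hkb of this list were lower in the head and tll was higher. The rest of the 12 genes with the largest negative differences were CG12986 (-4.80), CG4702 (-4.45), CG8147 (-4.15), run (-3.82), odd (-3.72), veil (-3.69) and gk (-3.62).

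**Figure D4:**
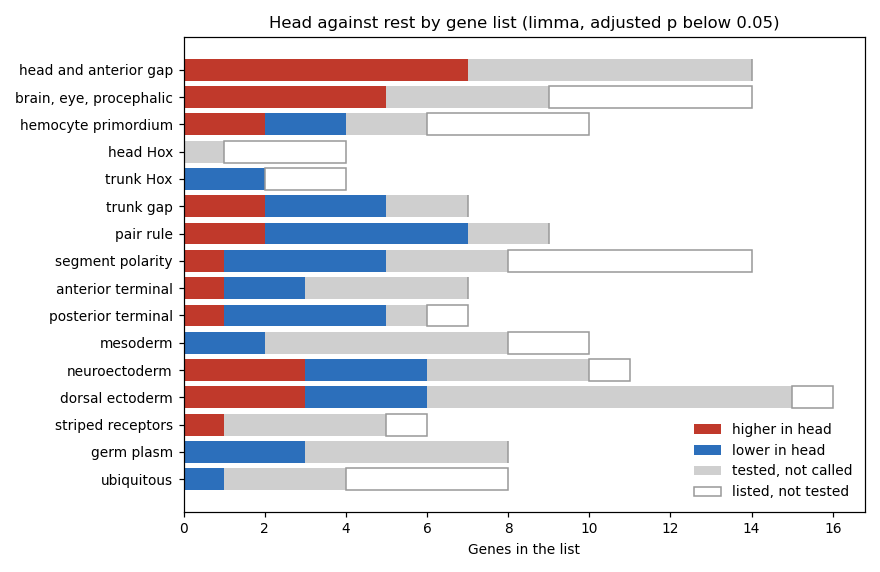
Number of genes (horizontal axis) in each gene list that were higher in the head, lower in the head, tested but not called, or not tested, in head against rest. The head and anterior gap list has 7 higher of 14, and the pair-rule list has 5 lower and 2 higher of 9.

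Other cell fates that pass through the head slices were counted by the same test, beside shares of 2.86% higher and 2.73% lower over all genes. Of 8 segment polarity genes tested, wg was higher (1.21) and ci, mid, ptc and wntD were lower, and the median was -0.15. Of 6 genes of the blood cell primordium, which lies in the head mesoderm, gcm and zfh1 were higher and NimC4 and ush lower, while srp, the GATA factor of these cells, differed by -0.13 (adjusted p = 0.77), and the median was -0.22. The summed FPKM of all 10 genes of that list was 42 to 239 in the head and 54.3 to 99.1 in the rest, and was higher in the head of 4 of the 5 embryos. Without gcm it was 34.3 to 90.4 and 53.9 to 91.7, and was higher in the head of 0 of 5. Of 8 mesoderm genes, tin and wntD were lower, and sna and twi, which define the mesoderm, did not pass (differences 0.17 and -0.24), and the median was 0.18. The summed mesoderm FPKM was 311 to 688 in the head and 349 to 626 in the rest.

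Along the dorsoventral axis, brk, l(1)sc and vnd of 10 neuroectodermal genes were higher and ind, pyr and ths lower, with a median of 0.31, where 2.86% and 2.73% of all genes were higher and lower. The homeobox gene ind, which marks a trunk neural column, averaged 1.45 ± 2.83 FPKM in the head and 23.6 ± 15.1 in the rest (difference -3.29, adjusted p = 0.020). Of 15 dorsal ectoderm genes, Doc2, tld and tup were higher and pnr, tsg and ush lower, with a median of 0.16. The GATA gene pnr, a marker of the trunk's dorsal ectoderm, differed by -1.48 (adjusted p = 0.014), and tup, a LIM-homeodomain gene, by 0.96 (adjusted p = 0.025). Of 5 receptor genes with trunk stripes, Tollo was higher and the median was 0.10.

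Germ plasm genes nos, osk and pgc were lower of 8 tested (2.73% of all genes were lower), with a difference of -3.45 for pgc, the repressor of transcription in the pole cells. The defining gene vas differed by 0.26 (adjusted p = 0.39). The summed FPKM of this list was 572 to 1066 in the head and 380 to 1064 in the rest and was higher in the head of all 5 embryos. Without Hsp83, which averaged 655 FPKM in the head and 474 in the rest, the sum was 203 to 289 and 252 to 363 and was higher in the head of only 2 embryos. Of 4 ubiquitous genes, Gapdh1 was lower (-0.42) and Act5C, Ef1alpha48D and alphaTub84B did not pass. The median differences were -0.03 for the germ plasm list and -0.03 for the ubiquitous list.

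Which allele is used in the head was read from ASE, (sim - mel)/(sim + mel) over the reads of a gene, so that 1 is D. simulans only and -1 is D. melanogaster only. Only autosomal genes were tested, since the X chromosome of a male hybrid comes from the mother. Of the 193 genes higher in the head, 137 were autosomal with ASE in at least 2 head slices of every embryo. The D. simulans allele was higher in the heads of all 5 embryos for 39 of them (28.5%) and the D. melanogaster allele for 25 (18.2%). Among all 3880 genes with such values these shares were 4.66% and 7.19%. The maternal allele was higher in all 5 heads for 21 of the 137 genes (15.3%) and for 69.7% of all genes. The shares are given as a description, since the 137 genes were chosen by their expression in the same slices.

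The head patterning genes with such values were mostly close to balance. Head ASE was 0.04 ± 0.07 for ems (SD, n = 5 embryos), -0.01 ± 0.07 for CG15696, -0.04 ± 0.03 for hbn, 0.11 ± 0.05 for Gsc and -0.13 ± 0.13 for gcm. The extremes among the genes higher in the head were Ndae1 (-0.87 ± 0.12), Jhe (-0.67 ± 0.14) and Hsp22 (-0.59 ± 0.12) toward D. melanogaster, and CG6885 (0.73 ± 0.06), CG15128 (0.59 ± 0.09) and Cad88C (0.54 ± 0.07) toward D. simulans. These 6 were chosen after their values were seen. For slp1 the head was near balance at -0.04 ± 0.04 while the rest was at -0.35 ± 0.10. The shift of slp1, 0.31, did not pass the test (adjusted p = 0.081).

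The difference of head and rest ASE was tested in 3845 autosomal genes with ASE in at least 2 head and 5 other slices of every embryo. The mean of both cross directions, the species component, was toward D. simulans in the head for 5 genes (0.13%) and toward D. melanogaster for 7 (0.182%; limma, adjusted p below 0.05). At an unadjusted p below 0.05 there were 477 genes. Of the 12 genes called, 11 moved the same way in all 5 embryos, 7 were also higher in expression in the head and 2 lower. The shares of all genes higher and lower in expression were 2.86% and 2.73%. Head ASE was not tested against the neighbours alone, and their mean values are given beside the genes as a description. Without any 1 of the embryos, no gene passed, with the smallest adjusted p between 0.0848 and 0.158, and all 12 kept their direction each time.

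The largest shift toward D. simulans was in sro (FBgn0262112, chromosome 3R, 25620319 to 25621527), a gene of ecdysteroid synthesis. Head ASE of sro was 0.70, 0.60, 0.48, 0.82 and 0.78 and ASE in the rest was 0.16, 0.00, 0.07, 0.05 and 0.17. Both neighbours leaned toward D. simulans as well, with a mean ASE of 0.35 ± 0.13 in the anterior pole and 0.47 ± 0.15 in the cephalic furrow region (SD, n = 5 embryos), and only the remainder of the embryo was near balance at -0.02 ± 0.08. The bias of the head, 0.68 ± 0.14, was the largest of the 4 regional means. The shift against the rest was 0.60 ± 0.04 (SE, adjusted p = 0.029). Total expression of sro was 19.8 ± 4.67 FPKM in the head and 25.5 ± 6.26 in the rest, a log2 difference of -0.35 (adjusted p = 0.041).

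CG5888 (FBgn0028523, chromosome 2L, 16400175 to 16448469) had ASE of 0.48, 0.33, 0.39, 0.70 and 0.54 there and 0.30, 0.12, 0.19, 0.35 and 0.21 in the rest (shift 0.27 ± 0.01, adjusted p = 0.014). Its mean was 0.45 ± 0.38 in the anterior pole (SD, n = 4 embryos with values), close to the head and far more variable, and 0.32 ± 0.12 in the cephalic furrow region. A head slice held 296 to 1758 allele counts of CG5888, in which a SNP can be counted more than once. The other shifts to D. simulans were 0.29 ± 0.02 in CG14767, 0.28 ± 0.02 in CG5009 and 0.24 ± 0.02 in CG3700. The shift of CG3700 was 0.43, 0.35 and 0.42 in the melXsim embryos but 0.08 and 0.09 in the simXmel embryos. Its sign was the same in both directions of the cross, and its size was not. For ASE, no gene passed the test of a difference between the directions. CG14767 crossed from a mean ASE of -0.13 ± 0.13 in the rest to 0.17 ± 0.09 in the head, and was also higher in expression there (log2 difference 1.07). Its neighbours were near the head, at 0.09 ± 0.12 in the anterior pole and 0.14 ± 0.17 in the cephalic furrow region. For CG5009 the neighbours, at -0.48 and -0.44, were near the remainder at -0.46, and the head was at -0.17 ± 0.20.

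Toward D. melanogaster the largest shift was in yellow-e3 (FBgn0038150, chromosome 3R, 9229145 to 9230592), a member of the yellow gene family. Its head ASE was -0.64, -0.53, -0.38, -0.24 and -0.35 and its ASE in the rest -0.10, -0.07, -0.01, 0.32 and 0.22. Head and rest did not overlap, and the shift was -0.51 ± 0.03 (adjusted p = 0.029). The cephalic furrow region was low too, at -0.27 ± 0.17, and the anterior pole was at 0.09 ± 0.13. For CG43085 (FBgn0262531, chromosome 3L, 17638586 to 17639837) ASE was 0.36, 0.42, 0.44, 0.21 and 0.38 in the head and 0.77, 0.76, 0.82, 0.75 and 0.86 in the rest, still toward D. simulans but less so (shift -0.44 ± 0.02, adjusted p = 0.014). The anterior pole had nearly the same ASE as the head, 0.34 ± 0.15, so that the contrast lay with the cephalic furrow region at 0.69 ± 0.06 and the remainder at 0.89 ± 0.03. Its expression was 310.5 ± 80.2 FPKM in the head and 129 ± 36.6 in the rest. CG43444 (FBgn0263392, chromosome 3L, 2786207 to 2879158) moved from 0.07 ± 0.07 in the rest to -0.34 ± 0.09 in the head, at a low level of 1.91 FPKM. It had 100 to 1425 allele counts per head slice, in which a SNP can be counted more than once.

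The other shifts toward D. melanogaster with 1 sign in all embryos were -0.34 ± 0.02 in Sec61beta, a subunit of the protein channel of the endoplasmic reticulum, -0.24 ± 0.02 in Ndae1, an anion exchanger, and -0.22 ± 0.02 in CG13384. Sec61beta had head ASE of -0.54, -0.56, -0.62, 0.02 and 0.08 and rest ASE of -0.41, -0.33, -0.40, 0.47 and 0.60, so that its shift was larger in the simXmel embryos. That of Ndae1 was too, at -0.42 and -0.35 against -0.09, -0.08 and -0.14 in the melXsim embryos. CG13384 was further toward D. melanogaster in the anterior pole, at -0.50 ± 0.10, than in the head, at -0.21 ± 0.05. The last called gene, Pli, which encodes the Pellino ubiquitin ligase, did not have 1 sign and was named after its values were seen. Its head ASE was -0.30, -0.17, -0.41, 0.12 and 0.12 and its rest ASE -0.37, -0.21, -0.46, 0.52 and 0.51. The shift of Pli in the species fit was -0.17 ± 0.01, made up of large negative differences in the 2 simXmel embryos and small positive ones in the 3 melXsim embryos.

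**Figure D5:**
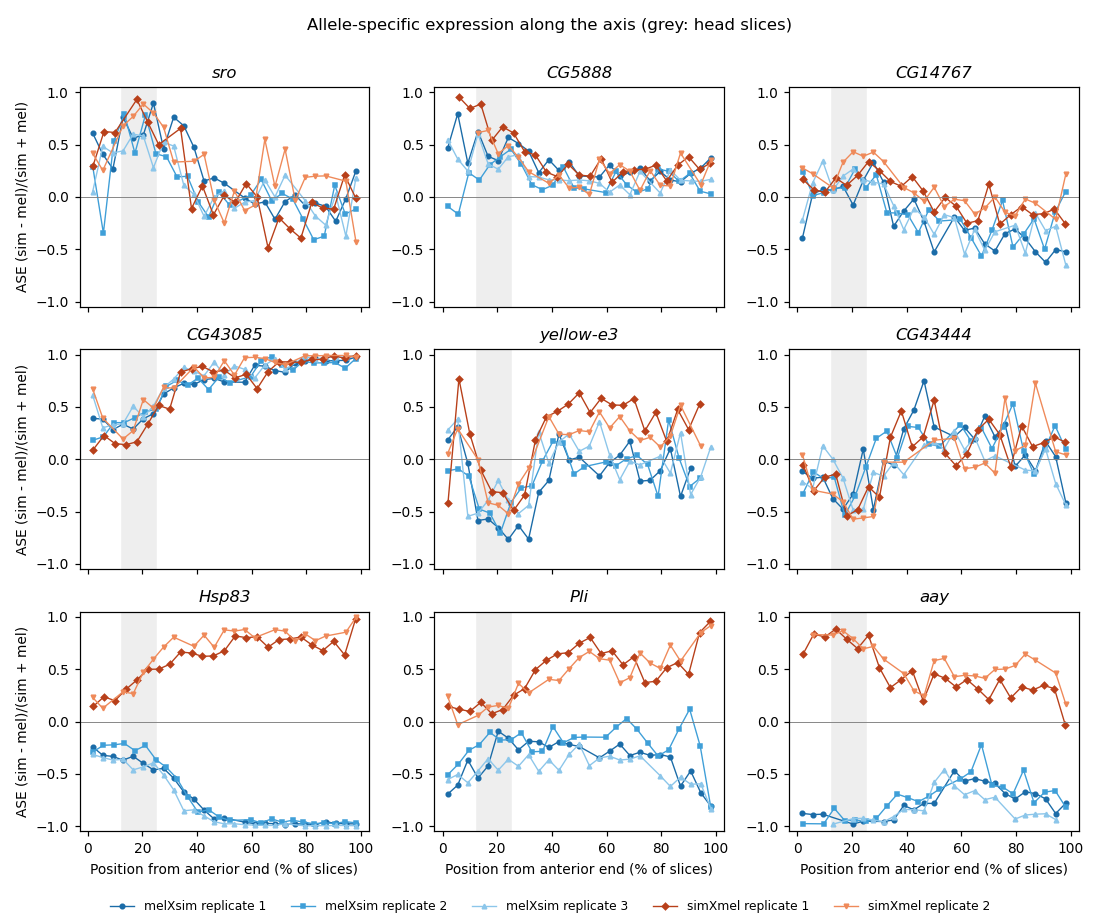
ASE (vertical axis, -1 for D. melanogaster only to 1 for D. simulans only) of 9 genes against slice position as percent of embryo length (horizontal axis), with 1 line per hybrid embryo and the head slices in grey. The lines of sro are above 0 in the grey band and the cephalic furrow region. In the anterior pole their mean is above 0, but a slice of melXsim replicate 2 is at -0.35. The lines of yellow-e3 are low in the grey band and behind it, where the mean is -0.27 against -0.43 in the head. Those of Pli and Hsp83 are separated by the mother's species.

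The same fit gave the maternal component, which is positive where the mother's allele takes a larger share in the head. No gene passed, with 522 genes at an unadjusted p below 0.05, 89 of them positive and 433 negative, and a smallest adjusted p of 0.058 for Pli. Of the genes with the smallest p, the phosphoserine phosphatase gene aay (0.27 ± 0.02), psq (0.12 ± 0.01), wun2 (0.22 ± 0.02) and the chaperone gene Gp93 (0.10 ± 0.01) had positive values. Negative values were those of Pli (-0.22 ± 0.01), the chaperone gene Hsp83 (-0.38 ± 0.03), CG18815 (-0.15 ± 0.01) and the histone demethylase gene Kdm4B (-0.35 ± 0.03). Their adjusted p ran from 0.058 to 0.088.

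Head ASE of Hsp83 was -0.39, -0.27, -0.41, 0.40 and 0.40, against -0.80, -0.79, -0.85, 0.64 and 0.75 in the rest. Its total expression in the head was 836, 794, 666, 609 and 369 FPKM against 788, 610.2, 601, 250.0 and 122, with the larger gap in the simXmel embryos. Expression differences between head and rest were compared between the directions of the cross as well, and no gene passed, with 894 genes at an unadjusted p below 0.05 and a smallest adjusted p of 0.224. The 3 genes with the smallest p were lov, Sec61beta and CG43800. In lov, a BTB-domain gene, the head-to-rest difference was -1.43, -1.60 and -1.85 in the melXsim embryos and -0.14 and -0.30 in the simXmel embryos.

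In both parental embryos the markers oc, ems and btd were higher in the head slices than in the rest. In the simXsim embryo hbn had 3.1 against 21.8 FPKM, eya 7.37 against 6.92 and Optix 1.36 against 10.5, head against rest. The same genes had 127 FPKM in the head slices against 5.04 for hbn, 9.31 FPKM in the head slices against 0.0518 for eya and 6.59 FPKM in the head slices against 1.16 for Optix in the melXmel embryo. These are single embryos without a replicate check.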

How the data were processed

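RNA-seq of 186 slices of 7 embryos was used. Per the labels and the study's methods, the authors mapped reads with STAR 2.4.2a to the release 5 genome of D. melanogaster, in which SNPs between the species had been masked, and removed reads that failed a remapping check (WASP). CASAVA 1.8.2 is listed as well. The deposited FPKM values come from Cufflinks 2.2.1 and are normalized for transcript length and mapped fragments. The authors' joint FPKM table matched the slice files to within 0.005 FPKM in 169 slices. The deposited ASE score was defined by the authors as (sim - mel)/(sim + mel) per gene and slice. The deposited allele counts are raw counts per species, used only for depth at the 3005 genes placed alike in both kinds of file. They can count a SNP more than once, so no binomial interval was made, and for other genes the depth behind an ASE value is unknown. The joint tables held 27 columns that were not used, and columns of the authors' own fits were not used.

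Slices were averaged within embryo and region, and the values compared were differences of log2(mean FPKM + 1), or of mean ASE, between the head and the other region of the same embryo. Genes were kept at an average of at least 1 FPKM over the regions compared (ASE: at least 2 head and 5 other slices per embryo). Differences were tested over the 5 embryos with limma 3.58.1 (R 4.3.3, lmFit and eBayes, two-sided, Benjamini-Hochberg, adjusted p below 0.05), after the scripts were tested on simulated data. For ASE the fit had the direction of the cross as a term, so that its intercept is the mean of the directions. Tables were made with Python 3.11.15. Head and rest come from the same embryo, which is the source of the pairing. As a check, the deviation of the head from the mean of all heads correlated with that of the rest at r = 0.817 to 0.926 across genes in the same embryo, against at most 0.642 in another.

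Genes named are oc, ems and btd; members of the lists that were called against the rest or belong to the head lists; the 12 called genes of largest difference each way with 1 sign in all embryos; the 6 of largest difference among those higher than the rest and both neighbours; up to 6 ASE calls each way with 1 sign in all embryos; the 4 largest maternal components each way and the 3 smallest p by direction of the cross, taken by smallest p where fewer than 3 were called. The members and lists were chosen with earlier results of these data known. The list names mes3, Cv-2, RpL32, RpS3, RpL4 and eEF1alpha1 were not matched and are not analysed here. Alternatives were other pseudocounts, filters and averaging, centring on the median gene, no pairing, other choices of slices, direction in the fit, leaving out each embryo and, chosen after seeing the data, FPKM of all slice files and a trend in eBayes.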

Additional observations from a re-analysis of the deposited data

Results flagged for a closer look

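For ftz, the log2 difference of head and rest was -2.97 in melXsim replicate 2, far from the other 4 embryos, which lay between -6.82 and -7.38. The rule behind this flag sets apart about 1 in 20 groups by chance, and it was applied to many genes. Most of the ftz in the head of melXsim replicate 2 lay in its last head slice, centred at 25.0% of the length, the limit of the head. For CG43800 the head-to-rest log2 difference was positive in the 3 melXsim embryos (0.73, 1.14 and 0.78) and negative in the 2 simXmel embryos (-0.58 and -0.34), a difference between the means of the directions of -1.34 whose test did not pass (limma, adjusted p = 0.224). For Pli the head ASE was above that of the rest in the 3 melXsim embryos (0.07, 0.04 and 0.04) and below it in the 2 simXmel embryos (-0.40 and -0.39), a difference between the directions of -0.45, and the test of this difference, the maternal component, gave an adjusted p of 0.058 (limma).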

How the results depend on the processing

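All 3 markers, oc, ems and btd, kept their direction and passed under other pseudocounts and without each embryo. No gene followed under the alternatives changed direction. Those followed were the markers, the 12 genes of largest difference each way, and the rule-named genes of the neighbour, ASE and cross comparisons. Other genes named or counted were not followed in this way. The median difference over all genes, -0.0044, moved to 0.018 when log2 values were averaged, 0.015 with all slice files and 0.00021 at a pseudocount of 10 FPKM. Among the genes called, 51.2% were higher, against 45.5% with inner head slices only and 47.9% unpaired. For head against rest, the calls were 124 higher and 100 lower without a filter, 45 and 49 without the replicate block (regions treated as unpaired, in place of the pairing by embryo), and 352 higher with the neighbouring regions left out of the rest. Leaving out 1 embryo gave 135 to 174 higher and 125 to 144 lower. Against the anterior pole the unpaired fit called 53 and 53, and leaving out 1 embryo 83 to 122 and 100 to 146, the lowest without melXsim replicate 1 (83 and 100), with 87 and 101 without simXmel replicate 1. Against the cephalic furrow region the unpaired fit called 19 and 12, and leaving out 1 embryo 54 to 82 and 42 to 56. The higher genes numbered 54 to 60 in each case but that without melXsim replicate 3 (82), and the lower genes 42 to 48 without melXsim replicate 1, melXsim replicate 2 or simXmel replicate 2.

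For the species component of ASE, the calls toward D. simulans and D. melanogaster were 15 and 14 on the log2 ratio of the alleles, 43 and 33 with a trend in eBayes, 20 and 13 without direction in the fit, 30 and 25 with the neighbours left out of the rest, 11 toward D. melanogaster without the replicate block, and 0 and 0 without any 1 embryo. The maternal component had 1 smaller with at least 3 head and 10 other slices, 4 larger and 6 smaller on the log2 ratio, 1 and 1 without the block, 11 and 17 with the trend, and 0 and 0 without any 1 embryo. Direction of the cross had 4 and 3 genes in expression at a pseudocount of 10 FPKM, lov and Sec61beta among them. The cause of these changes was not tested. The number of embryos, 5, and the 2 head slices that stand for melXsim replicate 1 in FPKM limit the precision of each value, and no detection limit was computed.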

Other observations

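Of the 14 genes that were higher in the head than in the rest and in both neighbours, 8 (nullo, grn, Hmx, CG5346, Hsp22, Tre1, CG34371 and pros) fall outside the rule for named genes, and their values are given after they were seen. Head FPKM of pros, a homeodomain gene of the neural lineages, was 35.4, 28, 18.8, 75.4 and 53.5, against 13.1, 8.17, 6.96, 22.4 and 14.4 in the rest. The regions differed in every embryo, with means of 19.3 ± 7.49 in the anterior pole, 42.2 ± 22.5 in the head and 21.3 ± 10.5 in the cephalic furrow region (SD, n = 5 embryos). Tre1, a G protein-coupled receptor gene needed for germ cell migration, had 58, 58.5, 15.7, 43.6 and 48.7 FPKM in the head and 13.9, 19.6, 6.82, 12.6 and 10.2 in the rest, and grn, a GATA factor gene, had 4.96, 4.08, 1.91, 13.1 and 10.2 and 0.403, 0.336, 0.18, 1.04 and 1.24. The homeodomain gene Hmx was at 2.12, 4.63, 0.485, 7.31 and 3.38 FPKM in the heads and at 0.0295, 0.235, 0.0241, 0 and 0.0176 in the rest. The log2 differences against the rest were 1.57 for pros, 1.70 for Tre1, 2.09 for grn and 1.90 for Hmx (limma, adjusted p = 0.00019, 0.00074, 0.00091 and 0.013). The genes grn and Hmx averaged under 1 FPKM in the rest and passed the filter only through the head. A higher mean in the head was thus fixed by the filter for both.

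The blastoderm gene nullo, which acts in cellularization, had head FPKM of 18.5, 31.5, 31.5, 7.37 and 16.9 against 2.67, 3.96, 11.3, 1.29 and 1.13 in the rest (log2 difference 2.29, adjusted p = 0.0013), and Hsp22, a mitochondrial small heat shock gene, had 39.1, 21.1, 53.9, 54.1 and 20.8 against 23.7, 7.75, 27.7, 5.41 and 2.69 (log2 difference 1.73, adjusted p = 0.034). CG5346 and CG34371 differed from the rest by 1.81 and 1.65 on the log2 scale (adjusted p = 0.00018 and 0.00024).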
